A study of Mus musculus with 24 samples.

Results

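Voltage-gated and potassium channel genes were taken as the protein-coding genes whose symbol begins with Kcn, with Scn and a digit, or with Cacn in the GENCODE vM1 annotation of the mouse genome build mm9. The rule gave 137 gene records with 134 distinct symbols out of 22350 protein-coding genes, and the other 22213 genes served for comparison. The symbols Kcnb2, Scn8a and Kcnh8 each had more than 1 gene record. The binding of Rev-erbα (Nr1d1) near these genes was read from 3 deposited lists, of which 2 hold ChIP-seq peaks and 1 holds ChIP-exo borders. The eWAT list came from epididymal white adipose tissue (2 libraries), the brain list from the ventral tegmental area (1 library), and the liver list from ChIP-exo (2 libraries). All 3 groups were wild-type C57BL/6J mice taken at zeitgeber time 10 (ZT10), in hours from lights on, and the same Rev-erbα antibody was used in each. The labels name no transgene, deletion or treatment in these groups and give no age. The tissues could not be checked against marker RNA, because the lists hold binding sites and not transcripts. The other 13 groups of the series (19 of its 24 samples) were not analysed here.

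Rev-erbα is a nuclear receptor of the circadian clock that represses transcription. It binds as a monomer to the RORE, an AGGTCA half-site with an A/T-rich 5′ flank, or as a pair to a repeated half-site (RevDR2), and it can also be held at DNA through other factors. Voltage-gated sodium, calcium and potassium channels open on depolarisation and shape the action potential, while inward rectifiers and tandem-pore channels set the resting potential. In dopamine neurons of the ventral tegmental area such channels control pacemaking, and in fat and liver potassium channels take part in volume control and metabolic sensing.

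The eWAT list holds 9016 peaks with scores from 10.1 to 281.6 (median 14.2). The brain list holds 10687 peaks with scores from 14.5 to 516.3 (median 25.5), and many peaks share 1 score. The liver list holds 245360 borders, single positions where exonuclease digestion stopped, each with a signal and a p-value. A plus-strand border followed by a minus-strand border 5 to 60 bp downstream was called a border pair, and 26535 pairs were formed, each ranked by the weaker of its 2 signals (median 0.535). Peak scores and border signals are the authors' values, and they were compared only within a list. Each group has 1 list, so there is no spread between replicates and no test. Intervals given below are 95% Wilson intervals over genes or sites, which treat genes as independent and cover counting error only.

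The following sites were those of the 2 channel genes ranked highest within 10 kb of a start in brain (the first pair) and in liver (the second pair). They are shown on the plus strand of mm9, 5′ to 3′, in lower case because none held a RORE, a RevDR2 or the half-site AGGTCA. The liver entries include 10 bp on each side of the border pair.
Kcnj9, brain, chr1:174254116-174254265: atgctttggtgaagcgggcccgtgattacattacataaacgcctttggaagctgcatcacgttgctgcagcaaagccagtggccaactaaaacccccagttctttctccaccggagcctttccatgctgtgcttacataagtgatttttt
Kcnj10, brain, chr1:174280145-174280294: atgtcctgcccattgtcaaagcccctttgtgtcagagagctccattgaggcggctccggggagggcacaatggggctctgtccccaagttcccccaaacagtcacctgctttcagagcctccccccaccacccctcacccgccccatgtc
Kcnk6, liver, chr7:30023216-30023264: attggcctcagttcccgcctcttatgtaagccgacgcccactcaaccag
Cacna1a, liver, chr8:87167088-87167136: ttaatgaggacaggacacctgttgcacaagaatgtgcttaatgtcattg

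The next sites, within 10 kb of a channel gene's start, are examples that held AGGTCA, which stands in capitals as AGGTCA or, on the opposite strand, as TGACCT.
Kcnk7, eWAT, chr19:5713578-5713727: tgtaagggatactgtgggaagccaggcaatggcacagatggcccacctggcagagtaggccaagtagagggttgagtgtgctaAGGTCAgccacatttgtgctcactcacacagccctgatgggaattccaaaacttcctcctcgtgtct
Kcnj15, eWAT, chr16:95481170-95481319: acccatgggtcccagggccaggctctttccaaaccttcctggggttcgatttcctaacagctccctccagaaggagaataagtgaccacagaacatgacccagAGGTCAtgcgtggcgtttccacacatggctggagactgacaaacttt
Kcng4, brain, chr8:122163795-122163944: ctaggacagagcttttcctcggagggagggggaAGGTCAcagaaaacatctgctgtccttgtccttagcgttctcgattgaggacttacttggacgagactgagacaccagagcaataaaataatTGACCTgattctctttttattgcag
Scn4b, liver, chr9:44940903-44940962: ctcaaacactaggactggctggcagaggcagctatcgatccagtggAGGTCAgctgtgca

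The last set lies inside channel genes, over 10 kb from their own starts, and was chosen after the values were seen. The capitals mark a RevDR2 on the minus strand in the first Scn8a peak, a RORE and a separate half-site in Cacna1e, and a single half-site in the peaks of Scn8a and Kcnq3 that coincide with liver border pairs.
Scn8a, eWAT, chr15:100859079-100859228: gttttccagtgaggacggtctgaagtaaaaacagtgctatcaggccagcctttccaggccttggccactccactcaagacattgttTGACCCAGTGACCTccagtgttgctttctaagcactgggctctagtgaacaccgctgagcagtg
Cacna1e, eWAT, chr1:156550429-156550578: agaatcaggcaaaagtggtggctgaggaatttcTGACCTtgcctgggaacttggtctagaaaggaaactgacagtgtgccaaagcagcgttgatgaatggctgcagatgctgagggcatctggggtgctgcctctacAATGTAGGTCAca
Scn8a, eWAT and liver, chr15:100837279-100837428: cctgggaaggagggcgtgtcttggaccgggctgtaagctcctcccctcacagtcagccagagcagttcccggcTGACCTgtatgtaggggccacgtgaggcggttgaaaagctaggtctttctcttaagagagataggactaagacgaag
Kcnq3, brain and liver, chr15:66014660-66014809: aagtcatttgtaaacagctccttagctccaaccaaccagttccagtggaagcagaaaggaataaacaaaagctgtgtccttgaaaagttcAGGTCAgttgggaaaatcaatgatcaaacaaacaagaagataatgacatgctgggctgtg

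A site was assigned to a gene when its centre lay within 10 kb of any annotated transcription start of that gene. Distances to a channel gene are to its nearest annotated start unless another start is named. Of the 137 channel genes, 14 had an eWAT peak (10.2%, interval 6.19 to 16.4), against 14.2% of the other protein-coding genes. A brain peak lay near 22 channel genes (16.1%, interval 10.9 to 23.1), against 28.0% of other genes. A liver border pair lay near 18 (13.1%, interval 8.48 to 19.8), against 35.2%. The interval of the channel genes thus lay below the share of other genes in brain and in liver, and held it in eWAT. At least 1 of the 3 lists had a site near 45 channel genes (32.8%, interval 25.5 to 41.1), against 51.1% of other genes.

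The gap to other genes differed with distance, as the plot of shares by distance shows. Within 1 kb of a start, 4 channel genes had an eWAT peak (2.92%) against 3.59% of others, 9 had a brain peak (6.57%, interval 3.49 to 12.0) against 18.4%, and 4 had a liver pair (2.92%, interval 1.14 to 7.27) against 19.9%. Between 1 and 10 kb, counting only genes with no nearer site, the channel genes numbered 10 in eWAT (7.3% against 10.6%), 13 in brain (9.49% against 9.59%) and 14 in liver (10.2%, interval 6.19 to 16.4, against 15.3%). In brain the 2 shares thus lay side by side in this class. Both are taken over all genes, including those already counted within 1 kb, which were fewer among channel genes. Within 50 kb the counts were 45 in eWAT (32.8% against 38.8%), 62 in brain (45.3%, interval 37.2 to 53.6, against 51.1%) and 64 in liver (46.7%, interval 38.6 to 55.0, against 60.6%). The median distance from a gene to its nearest site was 85.7 kb for channel genes and 78.7 kb for others in eWAT, 62.3 and 47.4 kb in brain, and 53.6 and 27.9 kb in liver. With any single liver border in place of a pair, 94 channel genes (68.6%) had one within 10 kb, against 77.5% of others.

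**Figure D1:**
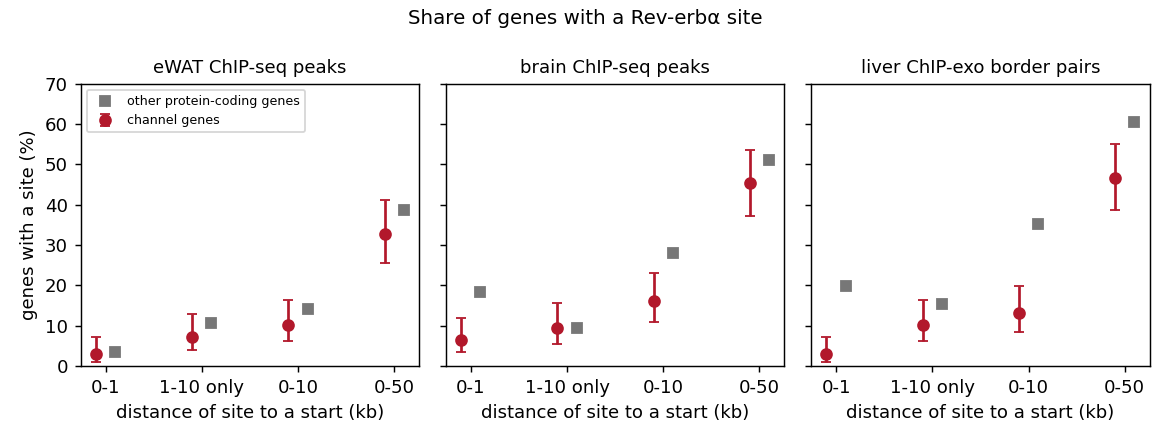
Share of genes (%) with a Rev-erbα site at each distance (kb) from a transcription start, for channel genes (circles, bars are 95% Wilson intervals) and other protein-coding genes (squares). In brain the shares of all genes were 6.57% and 18.4% within 1 kb. They were 9.49% and 9.59% between 1 and 10 kb with no nearer site.

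Start sequence, gene length and crowding differ between genes and were compared as classes. A start counts as CpG-rich when the 500 bp on each side had an observed to expected CpG ratio of at least 0.6 and a GC content of at least 50%. Of the channel genes 47.4% had such a start, against 49.0% of others. Among genes with one, the shares were 6.15% of channel genes and 18.6% of others in eWAT, 21.5% and 42.9% in brain, and 12.3% and 49.0% in liver. Among genes without one, they were 13.9% and 10.1% in eWAT, 11.1% and 13.7% in brain, and 13.9% and 21.9% in liver. Channel genes with a CpG-rich start (65 genes) thus lay further from other genes of their class than those without (72 genes) in all 3 lists, although the difference between the classes was not tested.

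Channel genes were long, with a median length of 37.1 kb against 15.4 kb, and only 17.5% of them had another gene's start within 10 kb, against 35.7% of other genes. Among genes longer than 30 kb the shares were 7.89% and 19.6% in eWAT, 18.4% and 33.8% in brain, and 6.58% and 39.9% in liver. Among genes of at most 30 kb they were 13.1% and 11.6%, 13.1% and 25.1%, and 21.3% and 32.8%. Where another gene's start lay within 10 kb, the shares in the same order of lists were 16.7% and 16.5%, 25.0% and 38.5%, and 25.0% and 46.9%. Without such a neighbour they were 8.85% and 12.9%, 14.2% and 22.1%, and 10.6% and 28.6%. Genes with 1 annotated start gave 11.1% and 8.72%, 11.1% and 17.5%, and 16.7% and 23.9%, and genes with 2 or more gave 9.64% and 18.6%, 19.3% and 36.2%, and 10.8% and 44.0%. In brain and liver the share of channel genes was below that of other genes in each of these classes. In eWAT the order turned in short genes, in genes without a CpG-rich start, in genes with 1 start and, narrowly, in genes with a neighbour. Not every gap passed the interval of the channel genes. In brain and in liver it held the share of other genes without a CpG-rich start and with 1 start. It also held that share for genes with a neighbour in brain (12.0 to 44.9) and for short genes in liver (12.9 to 33.1). The same was true in eWAT where the order turned.

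**Figure D2:**
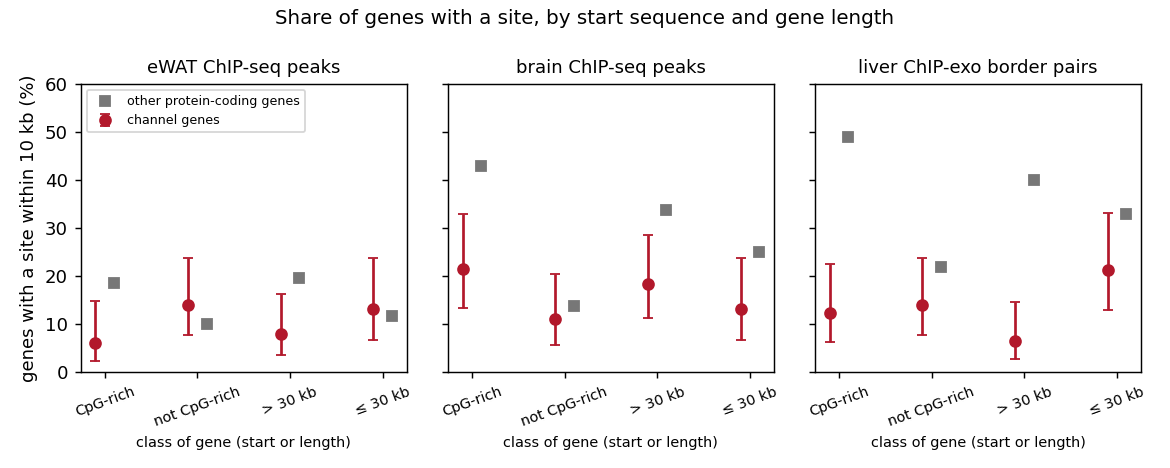
Share of genes (%) with a site within 10 kb, by CpG content of the start and by gene length, for channel genes (circles, bars are 95% Wilson intervals) and other protein-coding genes (squares). Liver shares for CpG-rich starts were 12.3% and 49.0%.

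The families differed in how many members had a site, and no test was made between them. Of the other protein-coding genes, 14.2% had a site in eWAT, 28.0% in brain and 35.2% in liver, and 51.1% had one in any list. Of the 32 pore subunits of voltage-gated potassium channels, which form the channel itself, 2 had an eWAT peak, 1 a brain peak and 1 a liver pair, and 4 had a site in any list. Kcna5, a delayed rectifier of heart and vessel, had the highest eWAT score of any channel gene within 10 kb, 23.3 (rank 1711), in a peak 5255 bp downstream of its start, and a second of 12.2 lay 1634 bp upstream. Kcnc4, a fast-inactivating channel, had an eWAT peak of 16.2 at 7822 bp upstream, nearer to Slc6a17. Kcnd3, an A-type channel, had 2 brain peaks of 29.1 and 25.5 at 825 and 5659 bp downstream of the nearest of its 5 annotated starts. Kcnh6, of the ERG type, had liver pairs of 0.442 and 0.373.

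Silent subunits, which modify pore subunits but form no channel alone, had a site in 3 of 10 genes. Kcnv2, a silent subunit of photoreceptors, had eWAT peaks of 13.2 and 10.1 and liver pairs of 0.687 and 0.165. Kcng4 had 2 brain peaks of 21.8, at 52 bp and 4290 bp from its start. Kcns3 had liver pairs of 0.264 and 0.224. Of the 12 auxiliary subunits, 5 had a site: Kcne4 and Kcne2 in eWAT (21.3 and 13.2), Kcnab2 in brain (21.8), Kcnab3 in brain and liver (25.5 and up to 0.532), and Kcne1 in liver (0.19). The higher Kcnab3 pair and its brain peak lay 1 bp from the start of Cntrob, a centriole gene, and 2484 and 2482 bp from that of Kcnab3.

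Of 12 calcium- or sodium-activated channels, 0 had an eWAT peak, 3 had a brain peak and 2 had a liver pair. Kcnma1, the large-conductance calcium-activated channel, had a brain peak of 36.4 at 3356 bp downstream. Kcnt1, a sodium-activated channel, had 2 peaks of 25.5 at 347 and 128 bp from 2 of its starts. Kcnu1, a channel of sperm, had a peak of 25.5 that lay 174 bp from the start of Ash2l. The small-conductance channels Kcnn1 and Kcnn2 had liver pairs of at most 0.304.

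The inward rectifiers had a site in 8 of 15 genes, near the 51.1% of other genes with a site in any list. Kcnj9, a G-protein-gated rectifier of neurons, had the highest brain score of a channel gene within 10 kb, 83.6 (rank 243 of 10687), in an intron 5203 bp downstream of its start. Kcnj10, the rectifier of astrocytes that takes up potassium, had brain peaks of 69.1, 65.4, 54.5 and 40.0, all in its intron between 1326 and 8702 bp downstream. A number of 4 or more brain peaks was seen at 83 of the other genes (0.374%). Kcnj11, the pore of the ATP-sensitive channel, had a brain peak of 25.5. In eWAT, Kcnj15 and Kcnj16 had peaks of 13.2 and 10.1. In liver, Kcnj8, an ATP-sensitive pore of vessels, had a pair of 0.985 (rank 4385 of 26535), and Kcnj1, Kcnj2 and Kcnj9 had pairs of 0.29, 0.249 and 0.205.

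Kcnj9 and Kcnj10 are neighbours on chromosome 1. In the 73.1 kb that span both genes with 10 kb on each side (1:174241164 to 174314216), the brain list had 6 peaks, the eWAT list 0 and the liver list 4 border pairs. The sixth brain peak, of 32.7, lay inside Kcnj10, 17.6 kb from its nearest start. None of these 6 brain peaks had a liver border at 100 bp or less from its centre. Just outside the lower end of this span, at 174240286 to 174240435 in eWAT, an intron of Igsf8 held a peak of both lists. The eWAT count of 0 thus depends on the 10 kb flank. The Igsf8 peak lay 19.1 kb from the Kcnj9 start, with a brain score of 301.8 (rank 12), an eWAT score of 153.0 (rank 18) and 2 liver borders. It lay 1578 bp from the nearest Igsf8 start and was named after its values were seen. The peaks in Igsf8 thus overlapped between tissues, and the brain peaks in the rectifier genes had no counterpart in the eWAT list. Only 6.61% of all brain peaks overlapped an eWAT peak.

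Tandem-pore channels, which carry background potassium currents, had a site in 5 of 14 genes. Kcnk6 was in all 3 lists, with an eWAT peak of 11.1 at 378 bp upstream of an internal start, a brain peak of 21.8 at 6561 bp upstream and a liver pair of 1.27 (rank 2470), the highest of any channel gene within 10 kb of a start. Its liver pair lay 108 bp and its brain peak 610 bp from the start of Yif1b, a trafficking gene, and both were lost to Kcnk6 when a site was given to its nearest gene only. Kcnk5, an acid-sensitive channel of epithelia, had a liver pair of 1.07 at 33 bp from its start and, 8083 bp upstream, a second of 0.615 beside an eWAT peak of 13.2. That peak had 5 liver borders within 100 bp of its centre. Kcnk7 had an eWAT peak of 19.2 at 9286 bp downstream, in an intron of Ehbp1l1. Kcnk4, a mechanosensitive channel, and Kcnk1 had brain peaks of 36.4 and 29.1 at 591 and 25 bp.

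Sodium channel genes had few sites. Of 11 pore subunits, Scn1a had an eWAT peak of 11.1 at 80 bp from an internal start and Scn3a had a liver pair of 0.247 at 41 bp, and 0 had a brain peak. Of 4 beta subunits, which bind and anchor the pore, Scn4b had a liver pair of 0.539.

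Of the 26 calcium channel genes, 3 had an eWAT peak (11.5% against 14.2% of other genes), 8 had a brain peak (30.8% against 28.0%) and 1 had a liver pair (3.85% against 35.2%). The brain share was near the background. Over 10 kb from their starts, 6 of these genes held 6 eWAT peaks, 9 held 13 brain peaks and 5 held 27 liver pairs. No value for other genes was set beside these counts. Cacna1a, the P/Q-type pore of presynaptic terminals, was in all 3 lists, with an eWAT peak of 16.2 at 516 bp upstream, a brain peak of 29.1 at 760 bp downstream and a liver pair of 1.16 (rank 3079) at 4222 bp downstream of internal starts. These were 3 separate positions, 212.5, 251.3 and 254.8 kb from the 5′-most start of the gene, and with that start alone Cacna1a had no site in any of the 3 lists. The eWAT peak lay in an intron, and the brain peak in an exon close to the 3′ end of the gene. The liver pair lay between genes, beyond that end. Cacna1g, a T-type pore, had a brain peak of 18.2, and Cacna1f, a pore of the retina, had an eWAT peak of 18.2 that lay 30 bp from the start of Ppp1r3f. The alpha2delta subunits, which traffic the pore, had brain peaks at 2 of 4 genes (Cacna2d4, 32.7, and Cacna2d2, 29.1). The beta subunit Cacnb3 had a brain peak of 21.8 at 64 bp. Of the 8 gamma subunits, several of which traffic AMPA receptors, Cacng5 (36.4), Cacng7 (29.1) and Cacng4 (21.8) had brain peaks and Cacng3 (11.1) an eWAT peak. None of the 16 auxiliary calcium channel genes had a liver pair within 10 kb. Kcnrg, a regulator of channel assembly and the remaining gene of the rule, had a liver pair of 0.28.

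**Figure D3:**
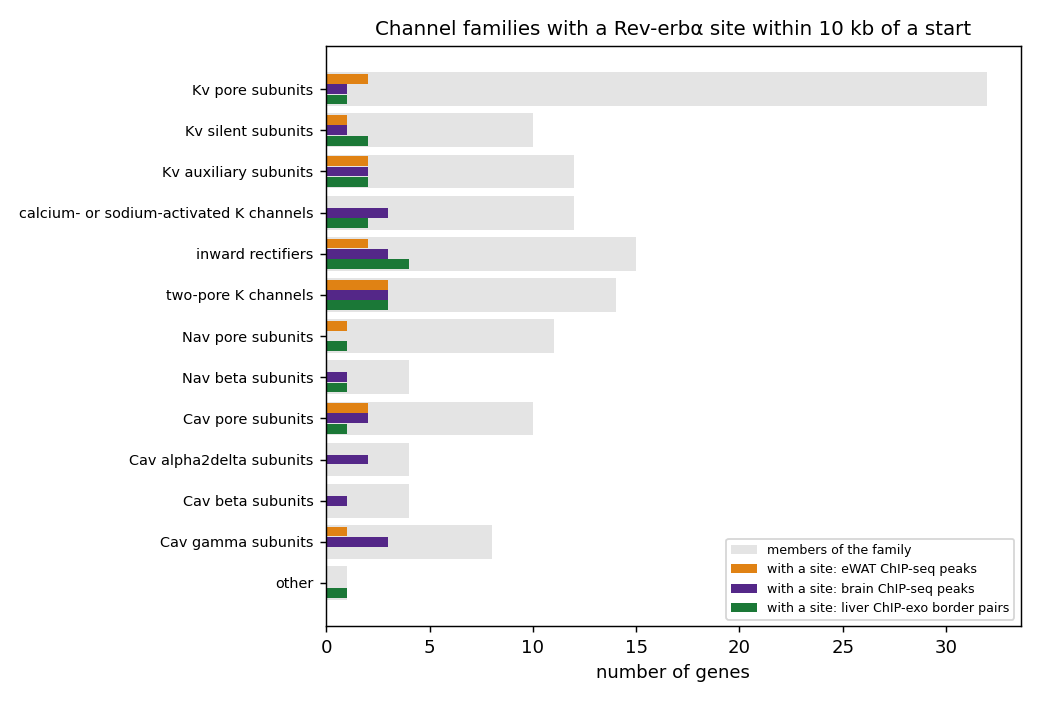
Number of genes in each channel family (grey) and number whose starts have a site within 10 kb in the eWAT, brain and liver lists. Inward rectifiers had 2, 3 and 4 of 15, and pore subunits of voltage-gated potassium channels (Kv pore) 2, 1 and 1 of 32.

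Lists of related genes were counted in the same way. Of 10 channels tied to pacemaking of dopamine neurons, 0 had an eWAT peak, 4 had a brain peak (Kcnj9, Kcnma1, Kcnd3 and Kcnj11, 40.0% against 28.0% of other genes) and 1 had a liver pair (Kcnj9, 10.0% against 35.2%). Of 16 channels of the cardiac action potential, 1 had an eWAT peak (Kcna5, 6.25% against 14.2% of other genes), 2 had a brain peak (Kcnd3 and Kcnj11, 12.5% against 28.0%) and 2 had a liver pair (Kcne1 and Kcnj2, 12.5% against 35.2%). Of 40 other channels and channel partners, which the symbol rule leaves out, 4 had an eWAT peak (10.0%), 13 had a brain peak (32.5%) and 14 had a liver pair (35.0%). Those shares lay near the background of all other genes in brain and liver.

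In eWAT and liver most sites did not score above the list median, as the plot of position and rank shows. Brain sites lay on both sides of their list median. The 14 genes with an eWAT peak had 16 peaks with a median score of 13.2, below the list median of 14.2, and 6 of the 16 were above it. The 22 with a brain peak had 28 peaks with a median of 27.3 against 25.5, and 14 were above the list median. The 18 with a liver pair had 27 pairs with a median signal of 0.373 against 0.535, and 10 were above it. No 2 channel genes shared a site. The channel gene was the nearest gene for 14 of 16, 25 of 28 and 20 of 27 sites. The centre lay in an intron for 6, 20 and 9 of these sites, in an exon for 3, 5 and 5, and between genes for 7, 3 and 13. Within 1 kb of the channel gene's own start lay 25.0% of the eWAT, 35.7% of the brain and 14.8% of the liver sites. Measured to the start of any gene, 13 of the 28 brain peaks lay within 1 kb. Of all brain peaks within 10 kb of any gene, 65.2% did so. By the same measure it was 5 of 16 in eWAT against 25.0%, and 6 of 27 in liver against 44.4%.

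**Figure D4:**
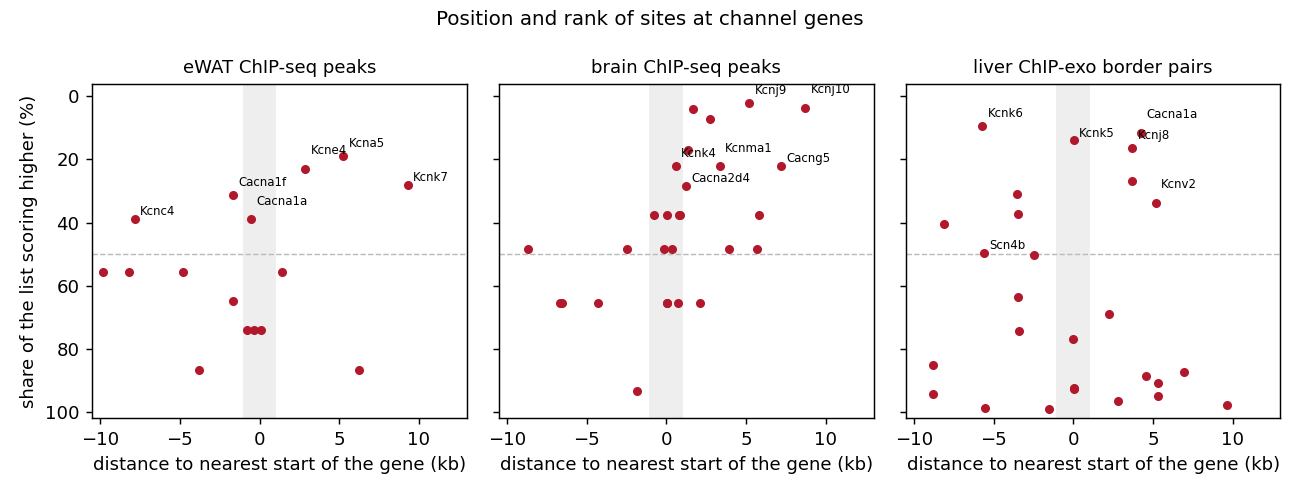
Each point is a site within 10 kb of a channel gene's start, plotted by distance from the nearest start of that gene (kb, negative is upstream) and by the share of its list that scores higher (%, inverted axis). The shaded band is 1 kb on each side of the start and the dashed line is the list median; the named brain sites of Kcnj9 and Kcnj10 had 2.26% and 3.61% of the list above them.

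Some assignments rest on the rule itself. With the 5′-most start of each gene only, Cacna1a, Kcnj16 and Scn1a lost their eWAT peaks, Cacna1a, Cacna1g, Cacng5 and Kcnab2 their brain peaks, and Cacna1a, Kcne1, Kcnj1 and Kcnn2 their liver pairs. With a site given to its nearest gene only, Cacna1f and Kcnc4 were lost in eWAT, Kcnab3, Kcnk6 and Kcnu1 in brain, and Kcnk6, Kcnn1 and Scn4b in liver. At the 10 kb limit, the most distant genes inside it were Kcnk7 in eWAT (9286 bp), Kcnu1 in brain (8670 bp) and Kcne1 in liver (9653 bp). The nearest outside were Kcnj2 (10464 bp), Kcnh4 (10999 bp) and Kcna7 (10166 bp). A further 10, 14 and 24 channel genes had their nearest site between 10 and 20 kb.

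Few of the sites were seen in more than 1 list. Both an eWAT and a brain peak lay near 2 channel genes (1.46%, against 6.6% of other genes), Kcnk6 and Cacna1a, and the same 2 genes were in all 3 lists (1.46% against 4.28%). With the nearest gene only this left Cacna1a, and with the 5′-most start only it left Kcnk6. Sites of eWAT and liver lay near 4 genes (2.92% against 8.01%) and sites of brain and liver near 5 (3.65% against 16.0%). In neither Kcnk6 nor Cacna1a did the eWAT and brain peaks overlap. Of the 1466 other genes with both, 26.5% had an overlapping pair, but 2 channel genes are too few for a comparison. Up to 50 kb, 5 channel genes had an overlapping pair of peaks: Kcnj9 and Kcnj10 through the peak in Igsf8, Cacna2d2 at 40.4 kb, Kcnu1 at 43.2 kb and Kcne3 at 48.8 kb. Those last 3 pairs lay near the starts of Hyal2, Star and Pgm2l1. No share of other genes is given beside this 50 kb count. Of the 16 eWAT peaks at channel genes, 3 had a liver border at most 100 bp from the centre (18.8%, interval 6.59 to 43.0), against 30.0% of all eWAT peaks. Of the 28 brain peaks 1 had such a border (3.57%, interval 0.633 to 17.7), against 36.4% of all brain peaks. Within 1 kb of any gene's start it was 1 of 13 brain peaks at channel genes (7.69%) against 60.9% of the others, and between 1 and 10 kb 0 of 15 against 26.0%. The 1 brain peak was that at the Cntrob start beside Kcnab3.

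Sites deeper in the channel genes were counted next. Channel genes cover 15.62 Mb. Over their whole bodies, the density was 1.92 eWAT peaks, 3.91 brain peaks and 4.74 liver pairs per Mb, against 4.84, 6.01 and 14.6 in other genes. In the 12.61 Mb over 10 kb from every start it was 1.82, 2.77 and 4.28 per Mb, against 4.13, 3.49 and 9.45. The brain densities were the closest of the 3 pairs in that part of the genes.

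**Figure D5:**
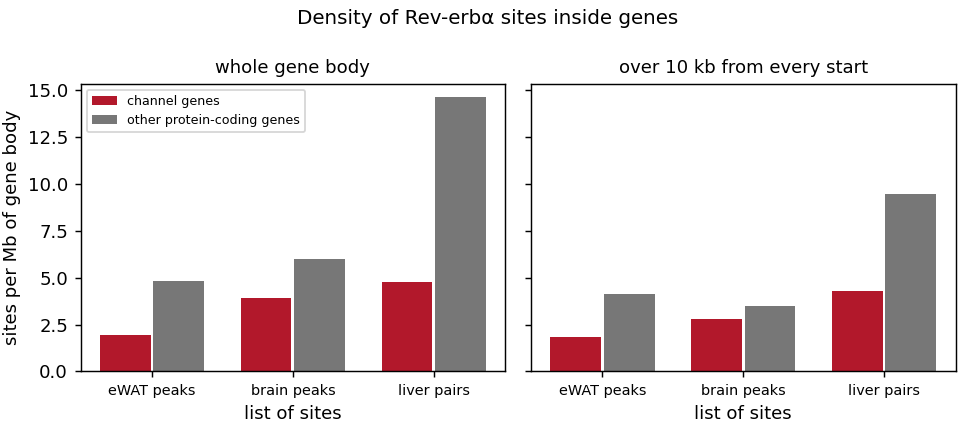
Sites per Mb of gene body in channel genes and other protein-coding genes, over the whole body and over the part more than 10 kb from every start. In the latter the brain densities were 2.77 and 3.49 per Mb.

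The genes named here were chosen after their values were seen. Over 10 kb from their own starts, 16 channel genes held 23 eWAT peaks, 27 held 39 brain peaks and 20 held 62 liver pairs. No share of other genes was set beside these gene counts. None of these eWAT and brain peaks overlapped a peak of the other tissue. Of all peaks, only 7.83% in eWAT and 6.61% in brain did so, and the lack of overlap here was not tested. The highest eWAT score was 57.7 (rank 201), in an intron of Kcnq1, a delayed rectifier of heart and epithelia, 162.9 kb from the nearest of its 3 annotated starts. Kcnh8, an ELK-type channel, held eWAT peaks of 39.5, 31.4 and 18.2. In brain, Kcnq3, a subunit of the neuronal M-current, held 5 peaks from 21.8 to 54.5, and Cacna2d4 had a peak of 47.3. In liver, Kcnk10, a tandem-pore channel, had a pair of 3.14 (rank 308), Scn3a one of 2.05 and Cacna2d3 one of 1.92.

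Some of these deep sites coincided with liver border pairs. The Kcnq3 brain peak of 21.8 held a pair with a spacing of 25 bp and signals of 1.6 and 1.43 (rank 1879), and the half-site printed above lay in the peak and at the plus border of the pair. The Scn8a eWAT peak of 21.3, in the gene of a sodium channel of axons, held 3 overlapping pairs that share 1 minus border. A pair also lay in an eWAT peak of Kcnq1 (22.3, at 62.2 kb from its nearest start).

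Motifs were searched on both strands, within 50 bp of a peak's centre and in liver over the pair and 10 bp on each side. The motifs were RORE, RevDR2 and RE1, the element of the neuronal repressor REST, together with the half-site AGGTCA, the E-box CACGTG, the cyclic AMP element TGACGTCA, the GC box GGGCGG and TGACTCA, the AP-1 element. The half-site is also part of the RORE and RevDR2 patterns. A RORE was found at 0 of 16 eWAT, 0 of 28 brain and 0 of 27 liver sites of channel genes, and in 2.54%, 1.49% and 0.283% of all sites of those lists. RevDR2 was likewise found at 0 (all sites 0.665%, 0.271% and 0.0565%) and RE1 at 0 (0.0998%, 0.14% and 0.049%). The half-site was found at 2 of 16 (12.5% against 13.9%), 1 of 28 (3.57% against 8.35%) and 2 of 27 sites (7.41% against 7.83%). Over the whole 150 bp it was in 2 of 28 brain peaks (7.14% against 11.7%), among them that of Kcng4 printed above. The GC box was found at 1 of 16 (6.25% against 2.44%), 3 of 28 (10.7% against 15.1%) and 1 of 27 (3.7% against 3.52%). The E-box was found at 1 of 16, 0 of 28 and 1 of 27 sites (all sites 9.06%, 6.16% and 7.08%), the cyclic AMP element at 0 in each list, and the AP-1 element at 0, 0 and 1. These shares rest on 3 sites or fewer each. The RevDR2 of Scn8a lay in a peak of 18.2 and the RORE of Cacna1e, a pore of R-type currents, in a peak of 14.2 but over 50 bp from its centre.

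The spacing of the border pairs was counted last. Of the 27 pairs at channel genes, 5 had a spacing of 5 to 23 bp (18.5%, against 31.5% of all pairs), 1 had a spacing of 24 to 26 bp (3.7%, against 12.5% of all pairs), 6 had 27 to 31 bp (22.2% against 12.0%) and 15 had 32 to 60 bp (55.6% against 44.0%). Some of these pairs share a border, as at Kcnj8, so they are not independent.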

How the data were processed

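Rev-erbα was mapped by ChIP-seq in eWAT and brain (ventral tegmental area) and by ChIP-exo in liver, all at ZT10. Per the submitters' processing notes, reads were aligned to mm9 with Bowtie 0.12.8 (ChIP-seq) or Bowtie 1.1.1 (ChIP-exo), and HOMER is named without a version. The sources used here do not state the caller settings, whether inputs were used, or whether replicates were pooled. The deposited peaks, each 150 bp wide, carry a score of undefined scale. Per the file headers, each deposited ChIP-exo border carries a signal and a p-value. Read totals are not given, so depth is unknown and precision is limited to counting error over genes or sites.

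Sites were assigned to the 70018 starts of protein-coding genes on chromosomes 1 to 19 and X (GENCODE vM1) by their centre. Plus and minus borders were paired at 5 to 60 bp, and tied scores share the best rank. The code was written in Python 3.11.15 with pandas 2.3.3, numpy 2.4.6 and pysam 0.24.0, and was checked on planted sites and pairs. The channel genes, families, lists and motifs were chosen with earlier results of these data known. Named genes were those in all 3 lists, the 8 best-scoring per list, the best of each family, members of the dopamine and cardiac lists with a site, genes with a RORE or RevDR2 and those nearest the 10 kb limit. Sites with over 10 sites of their list within 100 kb were counted and not named, and others are said to be chosen after their values were seen. Alternatives were other windows, nearest gene only, the 5′-most start only, higher scores, stricter borders, wider pairs, and distinct symbols. No test was run, gene expression was not used here, and single values of some genes are not reported here.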

Additional observations from a re-analysis of the deposited data

How the results depend on the processing

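The share of channel genes was below that of other genes in each list under every alternative run. The 14 genes with an eWAT peak became 4 within 1 kb, 45 within 50 kb and 6 with scores above the list median. The 22 with a brain peak became 9, 62 and 11 under the same settings, and 13 between 1 and 10 kb, where the share was 9.49% against 9.59%. The 18 with a liver pair became 4 within 1 kb, 64 within 50 kb, 1 with borders at p of at most 0.01 (0.73% against 2.94%), and 94 with any single border. The 2 genes with both eWAT and brain peaks became 1, 24 and 1 (within 1 kb, within 50 kb, above the median), and the 0 overlapping pairs became 5 within 50 kb. The 2 genes in all 3 lists became 0, 20 and 0, the last with scores above the median and p of at most 0.01. The window and thresholds change these counts by construction. For genes in several lists and for overlapping pairs, no share of other genes was set beside the counts under these alternatives. Those counts therefore do not show whether channel genes lay above or below other genes. The nearest gene only, and likewise the 5′-most start only, left 1 gene in both eWAT and brain and 1 in all 3 lists. The half-site count in brain went from 1 to 2 over the whole peak. In the single lists, the nearest gene only gave 12, 19 and 15 genes, the 5′-most start only 11, 18 and 14, within 1.5 times of the counts above, and 137 records or 134 symbols gave the same counts. The settings between 1 and 10 kb, with any single border and with distinct symbols, and the nearest gene and 5′-most start for genes in several lists, were added after seeing the data. No paired analysis was possible because each group has 1 list and no test. The brain list came from 1 library, and the score scale and read depth are not stated, so lists of other depth or threshold would hold other counts.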

Other observations

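Marker genes of the 3 tissues were placed against the lists by the same 10 kb rule, as values beside the channel genes. By that rule 14.2% of the protein-coding genes other than channel genes had an eWAT peak, 28.0% a brain peak and 35.2% a liver pair. The marker sets hold 3 to 5 genes each, too few for a comparison with those shares. Of 5 adipocyte markers, 4 had an eWAT peak (Adipoq, Cidec, Fabp4 and Plin1), 2 had a brain peak and 4 had a liver pair. All 3 hepatocyte markers (Alb, Apoa1 and Ttr) had a liver pair, and 0 had an eWAT or brain peak. Of 4 neuron markers, 1 had an eWAT peak (Elavl3), 2 had a brain peak (Elavl3 and Snap25) and 1 had a liver pair (Elavl3). Rbfox3 was also planned as a neuron marker but matched no protein-coding symbol of the annotation and was left out. Of 3 dopamine neuron markers, 0 had an eWAT or brain peak and 1 had a liver pair (Ddc). These counts describe binding near the genes and say nothing of the cells in the samples.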
